A study of Homo sapiens with 6 samples.

Results

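Expressed pseudogenes are described here in RNA that came down with IGF2BP3 or with control IgG from WaGa cells. Members were the genes whose type in the count table holds the word pseudogene and which had 20 or more counts in each of the 6 libraries. By this rule 287 of the 15271 pseudogenes in the table, which lists 60655 genes, were members, and 11298 pseudogenes had 0 counts in all libraries. Members were thus chosen by their raw counts in the same libraries that are compared, and not by the difference between the groups. Of the members, 84 were processed (of 10166 in the table), 13 were unprocessed (of 2614) and 189 were transcribed (of 1593). The transcribed class held 136 unprocessed, 37 processed and 16 unitary pseudogenes. A single T cell receptor pseudogene, *TRBV26OR9-2*, fell outside the 3 classes. WaGa is an established Merkel cell carcinoma (MCC) line that carries Merkel cell polyomavirus. RNA immunoprecipitation sequencing (RIP-seq) compared 3 libraries from IGF2BP3 IP, named IMP3 in the labels, with 3 libraries from IgG IP. All came from untreated cells of the WT genotype, with replicates numbered 1 to 3 in each group. The comparison asks which RNAs are more abundant with the IGF2BP3 antibody than with IgG. The sources do not say whether replicates came from separate cultures, so p-values measure only the spread between these libraries.

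Pseudogenes are gene copies that have lost the ability to make the protein of the gene they came from. Processed pseudogenes are mRNAs that were copied back into the genome, so they lack the introns of the parent and often sit far from it, and abundant housekeeping mRNAs gave rise to most of them. Unprocessed pseudogenes come from duplication of a stretch of DNA and keep the exon and intron layout, while unitary pseudogenes are former genes that decayed in place with no working copy left. The transcribed classes carry evidence of a transcript of their own, and many of these are treated as long noncoding RNAs. IGF2BP3 is an oncofetal RNA-binding protein that binds mRNAs and regulates their stability and translation. Since a short read can match both a pseudogene and its parent, the count of a recent copy depends on how matching reads were assigned.

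Library totals ran from 9758759 to 14886414 counts. In IgG IP and in IGF2BP3 IP alike, replicate 1 was unlike the other two replicates, with a chi-square per degree of freedom of 16.3 to 19.7 for pairs that included replicate 1, against 2.13 and 3.06 for replicates 2 and 3. Values of members without both replicate 1 libraries are given where a call differs. All 10 Merkel cell carcinoma markers had counts in every library, with a summed level of 5102 to 5448 CPM (counts scaled to the library total). The summed CPM of 4 fibroblast markers was 49.4 to 52.0 in IgG IP and 41.6 to 47.0 in IGF2BP3 IP, and 1 of the 4 had a count in every library. Whether these counts came from fibroblasts or from the WaGa cells themselves was not tested, nor was their part in the results below. Of 2 keratinocyte markers, *KRT14* was at 0 in all libraries and the other had a count in every library, with a summed level of 0.27 to 1.08 CPM in IgG IP and 0.38 to 0.89 CPM in IGF2BP3 IP. Of 3 leukocyte markers, *PTPRC* and *CD3E* were at 0 in all libraries, and the summed level was at most 0.20 CPM in IgG IP and 0.30 CPM in IGF2BP3 IP.

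The closeness of some copies to their parents is shown by 4 sets of sequences. The first set is the whole coding sequence of *RPL41*, which encodes a small ribosomal protein, beside its processed copy *RPL41P1* at chr20:21755270-21755347 on the plus strand. Not a single base differed over these 78 bases. All coordinates are from GENCODE version 44 on GRCh38, sequences run 5′ to 3′, and capitals mark bases of a pseudogene that differ from the parent.
RPL41: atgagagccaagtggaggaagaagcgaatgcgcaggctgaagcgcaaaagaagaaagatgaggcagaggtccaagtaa
RPL41P1: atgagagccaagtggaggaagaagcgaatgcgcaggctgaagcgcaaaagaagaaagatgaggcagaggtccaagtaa

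The second is the start of *H3P6* at chr2:174719908-174719997 on the plus strand, the member with the most counts. It matched the first 90 coding bases of *H3-3A*, a gene for the replication-independent histone H3.3, without a difference.
H3-3A: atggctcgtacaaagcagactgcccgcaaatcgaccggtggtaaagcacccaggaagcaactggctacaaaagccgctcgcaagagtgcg
H3P6: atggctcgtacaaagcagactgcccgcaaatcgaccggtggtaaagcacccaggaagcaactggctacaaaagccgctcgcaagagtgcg

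The third covers coding bases 68 to 187 of *SNRPG*, which encodes the Sm protein G of spliceosomal RNPs, because its copy *SNRPGP2* was among the processed members with the lowest fold changes. The stretch was chosen as the one with the most differences. *SNRPGP2* at chr18:54406928-54407047 on the minus strand differed at 5 of 120 bases, and *SNRPGP10* at chr1:205351314-205351433 on the plus strand at 2.
SNRPG: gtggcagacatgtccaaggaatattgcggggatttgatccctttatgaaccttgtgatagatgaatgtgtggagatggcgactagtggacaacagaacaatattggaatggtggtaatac
SNRPGP2: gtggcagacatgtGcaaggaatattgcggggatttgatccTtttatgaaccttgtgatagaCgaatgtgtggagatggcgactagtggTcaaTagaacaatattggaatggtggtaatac
SNRPGP10: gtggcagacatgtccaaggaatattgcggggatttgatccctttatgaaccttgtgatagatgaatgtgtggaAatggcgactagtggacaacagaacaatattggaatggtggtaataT

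The fourth is from *PI4KA*, which encodes a phosphatidylinositol 4-kinase and was called enriched in the IGF2BP3 IP. Its copies were not called, but their confidence intervals, given below, were wide. It spans coding bases 5120 to 5239, again the stretch with the most differences. *PI4KAP1* at chr22:18544659-18544778 and *PI4KAP2* at chr22:21484012-21484131, both on the minus strand, each differed from it at 6 of 120 bases.
PI4KA: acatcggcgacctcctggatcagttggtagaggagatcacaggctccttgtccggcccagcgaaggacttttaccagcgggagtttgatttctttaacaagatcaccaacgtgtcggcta
PI4KAP1: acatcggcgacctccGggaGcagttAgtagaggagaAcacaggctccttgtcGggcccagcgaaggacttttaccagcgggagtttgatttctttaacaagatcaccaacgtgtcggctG
PI4KAP2: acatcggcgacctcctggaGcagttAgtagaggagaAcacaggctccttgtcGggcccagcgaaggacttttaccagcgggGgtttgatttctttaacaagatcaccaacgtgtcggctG

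None of the 287 pseudogenes was called enriched or depleted in the IGF2BP3 IP in the main test. A call required a 1.5-fold difference together with an adjusted p-value (Benjamini-Hochberg) under 0.05 in the quasi-likelihood test of edgeR, and by this rule 0 members were higher and 0 lower. Among all 14507 tested genes, 1.16% were higher and 0.0% lower by the same rule, and among the 11852 genes with 20 or more counts in each library 1.4% were higher. DESeq2, which called 2.22% of its tested genes higher and 0.0% lower, called 0 members, as did limma-trend on log2(TPM + 1), which called 0.0% of genes. Before adjustment, 8 members had p-values under 0.05 and were higher, and 7 were lower. These were 2.79% and 2.44% of the members, against 9.72% and 3.1% of all tested genes and 10.9% and 3.39% of those with the same count minimum. DESeq2 gave 8 members and limma-trend 10 members with an unadjusted p-value under 0.05 in either direction. Of all genes, DESeq2 put 9.13% higher and 2.94% lower by that measure, and limma-trend 5.78% and 0.6%.

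Fold changes of the pseudogenes were small in every class. The median log2 fold change was −0.04 over the members and −0.01 over all tested genes. It was −0.06 for processed, −0.04 for transcribed and 0.06 for unprocessed members. Below 0 lay 166 of the 287 members, or 57.8%, against 51.1% of tested genes and 52.1% of those with the same count minimum. When a single library was left out, the median over the members ran from −0.11 to 0.06, so its sign rested on the choice of libraries. A fitted rise of 1.5-fold or more was reached by 3 members, or 1.05%, against 5.3% of tested genes, and a fitted drop of that size by 1 member, or 0.348%, against 1.5%. Among the 11852 genes with 20 or more counts in each library, which share the count minimum of the members, 3.89% reached such a rise and 0.135% such a drop. All 4 were transcribed pseudogenes.

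**Figure D1:**
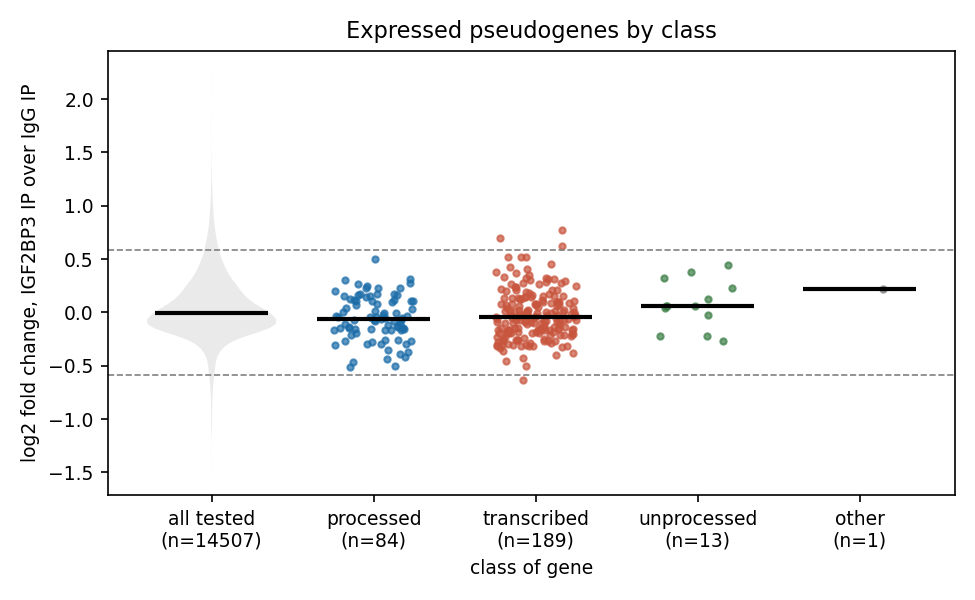
Log2 fold change of IGF2BP3 IP over IgG IP for all 14507 tested genes (violin) and for each pseudogene (points) by class, with black lines at the medians and dashed lines at 1.5-fold. The medians lie between −0.06 and 0.06 in the 3 main classes, and only 4 points, all transcribed, lie beyond the dashed lines.

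Precision depended on the count level. The standard error of the log2 fold change had a median of 0.27 for the 87 members with a mean count from 20 to 50, 0.21 for the 88 members from 50 to 100, 0.17 for the 90 members from 100 to 500 and 0.12 for the 22 members above 500. The 95% confidence interval lay wholly below a 1.5-fold rise for 191 members, or 66.6%, against 65.6% of tested genes and 75.6% of those with the same count minimum. That was the case for 31 of the 87 members with the fewest counts and for 21 of the 22 with the most. For the other members a 1.5-fold rise was within or below the interval, so its absence was not shown at this depth. The interval lay within 1.5-fold in both directions for 102 members, or 35.5%, against 53.7% of tested genes and 65.7% of those with the same count minimum. The 2 members closest to the minimum, *RPL15P2* and *RPL24P4*, both had a lowest count of 20 and log2 fold changes of 0.11 and 0.01. Just outside it, *PPP4R1L* and *KRT8P12* had a lowest count of 19 and log2 fold changes of −0.15 and −0.25.

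**Figure D2:**
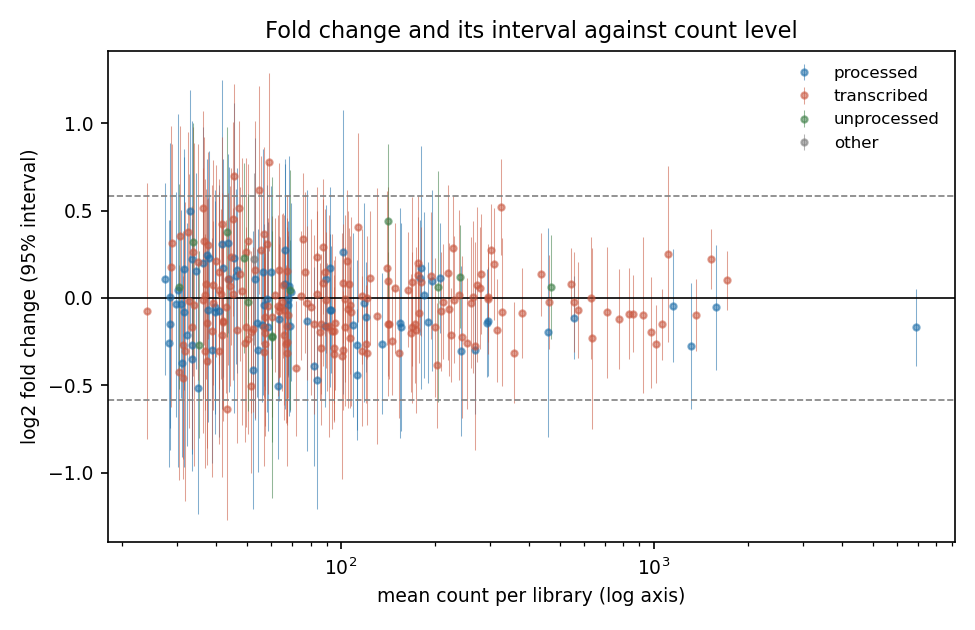
Log2 fold change with its 95% confidence interval against the mean count per library (log axis) for the 287 pseudogenes, coloured by class, with dashed lines at 1.5-fold. The 4 members past a dashed line have mean counts of 58.8 or less, and the 22 members with 500 or more counts lie between −0.27 and 0.25.

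The largest fold change belonged to *OR7E14P*, a transcribed copy of the olfactory receptor family at chr11:17052025-17053024. Its CPM, scaled with TMM factors, were 4.55, 2.68 and 3.55 in IgG IP and 5.62, 6.12 and 6.42 in IGF2BP3 IP. Each IGF2BP3 library thus lay above each IgG library, and the log2 fold change was 0.78 ± 0.23 (SE, n = 3 per group), with an adjusted p-value of 0.17 in edgeR. With the replicate number as a block, it passed both thresholds (edgeR adjusted p = 0.01). Without both replicate 1 libraries, where 3.18% of tested genes were called higher and 0.0545% lower, it passed as well with a log2 fold change of 1.02 (edgeR adjusted p = 0.0068).

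*AL390726.5*, a transcribed unprocessed pseudogene on chromosome 9, behaved alike. It had 3.69, 2.75 and 2.18 CPM in IgG IP against 4.62, 4.53 and 4.63 CPM in IGF2BP3 IP. The groups did not overlap, and the log2 fold change of 0.70 ± 0.23 (SE) had an adjusted p-value of 0.24 in edgeR and 0.036 with the replicate block. Without both replicate 1 libraries *AL390726.5* also passed both thresholds, with a log2 fold change of 0.88 (edgeR adjusted p = 0.039). These 2 members were the only ones past both thresholds with the block, by which 3.56% of tested genes were called higher and 0.103% lower.

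*TPTEP1* had the smallest adjusted p-value of the members. It is a transcribed copy of *TPTE*, a gene for a testis-type transmembrane phosphatase, and the pseudogene lies on chromosome 22. Its counts were 225, 302 and 254 in IgG IP and 386, 429 and 348 in IGF2BP3 IP. In normalized terms these were 21.7 ± 2.33 and 31.0 ± 2.38 CPM (SD, n = 3), with no overlap between the groups. The log2 fold change was 0.52 ± 0.12 (SE), below the fold minimum, and the edgeR adjusted p-value was 0.089. The adjusted p-value was 0.028 in DESeq2, which put 3.2% of genes higher and 0.00791% lower at any fold, and 0.00029 with the replicate block. After a correction for GC content, by which 0.553% of tested genes were called higher and 0.0% lower, the log2 fold change of *TPTEP1* was 0.63 and both thresholds were passed (edgeR adjusted p = 0.045). After one for gene length, by which 0.981% were called higher and 0.0% lower, it was 0.66 (edgeR adjusted p = 0.049). With the GC correction and the block, *TPTEP1* and *OR7E14P* passed upward, where 1.84% of tested genes were called higher and 0.249% lower. With a term for replicate 1 in place of the block, 3.7% of tested genes were called higher and 0.159% lower, and *TPTEP1* stayed below the fold minimum. The parent *TPTE* was listed at 0 counts in all 6 libraries. A second copy of this gene, *TPTEP2*, had a log2 fold change of −0.02.

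*SMG1P3* was the third member with a fitted rise of at least 1.5-fold. *SMG1* encodes a kinase of nonsense-mediated mRNA decay, and its copies lie on chromosome 16. CPM of *SMG1P3* were 4.12, 3.15 and 3.39 in IgG IP and 6.88, 3.70 and 5.69 in IGF2BP3 IP. Replicate 2 of IGF2BP3 IP lay within the range of the IgG libraries, and the log2 fold change of 0.62 ± 0.26 (SE) had an edgeR adjusted p-value of 0.37. The other copies *SMG1P1*, *SMG1P5* and *SMG1P7* had log2 fold changes of 0.38, 0.37 and 0.15, and *SMG1* itself had 0.15. None of them passed the test. *SMG1P3* shares 386 exonic bases on the same strand with *NPIPB3*, so its reads may be divided between both.

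Among abundant transcribed members, *GTF2IP4* showed a small shift. *GTF2I* encodes the general transcription factor TFII-I and was duplicated with its neighbourhood on chromosome 7. CPM of *GTF2IP4* were 109, 113 and 118 in IgG IP and 138, 129 and 131 in IGF2BP3 IP. The groups did not overlap, and the log2 fold change was 0.22 ± 0.08 (SE), with an edgeR adjusted p-value of 0.25, or 0.015 with the block. The parent *GTF2I* had a log2 fold change of 0.10. The copies *GTF2IP1*, *GTF2IP12* and *GTF2IP20* had 0.19, −0.04 and −0.05. *ZNF252P* and *ZNF826P*, zinc finger copies with mean counts of 1709 and 1364.5, had 0.10 and −0.10.

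At the other end, *DPY19L2P3*, on chromosome 7, was the only member with a fitted drop of at least 1.5-fold. It is a copy of a C-mannosyltransferase family gene that is needed for sperm head formation. It had 4.23, 4.96 and 3.55 CPM in IgG IP and 3.78, 1.96 and 2.52 CPM in IGF2BP3 IP, and replicate 1 of the latter lay within the IgG range. The log2 fold change was −0.63 ± 0.28 (SE) with an edgeR adjusted p-value of 0.39. Without both replicate 1 libraries it was −0.94, and the member then passed both thresholds (edgeR adjusted p = 0.045). The copies *DPY19L2P1* and *DPY19L2P2* had log2 fold changes of 0.02 and −0.10, and *DPY19L2* had −0.24.

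The 4 copies of *STAG3*, a cohesin subunit of meiotic cells, all had fold changes below 0, from −0.50 for *STAG3L2* to −0.18 for *STAG3L5P*. *STAG3L2* had 6.07, 4.76 and 4.19 CPM in IgG IP and 4.03, 3.40 and 3.09 CPM in IGF2BP3 IP. *STAG3L3* had 6.18, 6.57 and 7.18 CPM against 5.62, 4.68 and 4.80 CPM. In both the groups did not overlap, yet the edgeR adjusted p-values were 0.39 and 0.37. These copies lie on chromosome 7 and resemble each other, so their counts are not independent, and they were grouped after their values were seen. *ESPNP*, a copy of the actin-bundling gene *ESPN*, and *FGF7P6*, a copy of a fibroblast growth factor gene, had log2 fold changes of −0.46 and −0.43 at mean counts of 31.3 and 30.5.

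*LRRC37A4P* passed both thresholds without the replicate 1 libraries only, with a log2 fold change of 0.75 against 0.40 in all libraries. It was named after its values were seen, as were the further copies given beside named members.

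**Figure D3:**
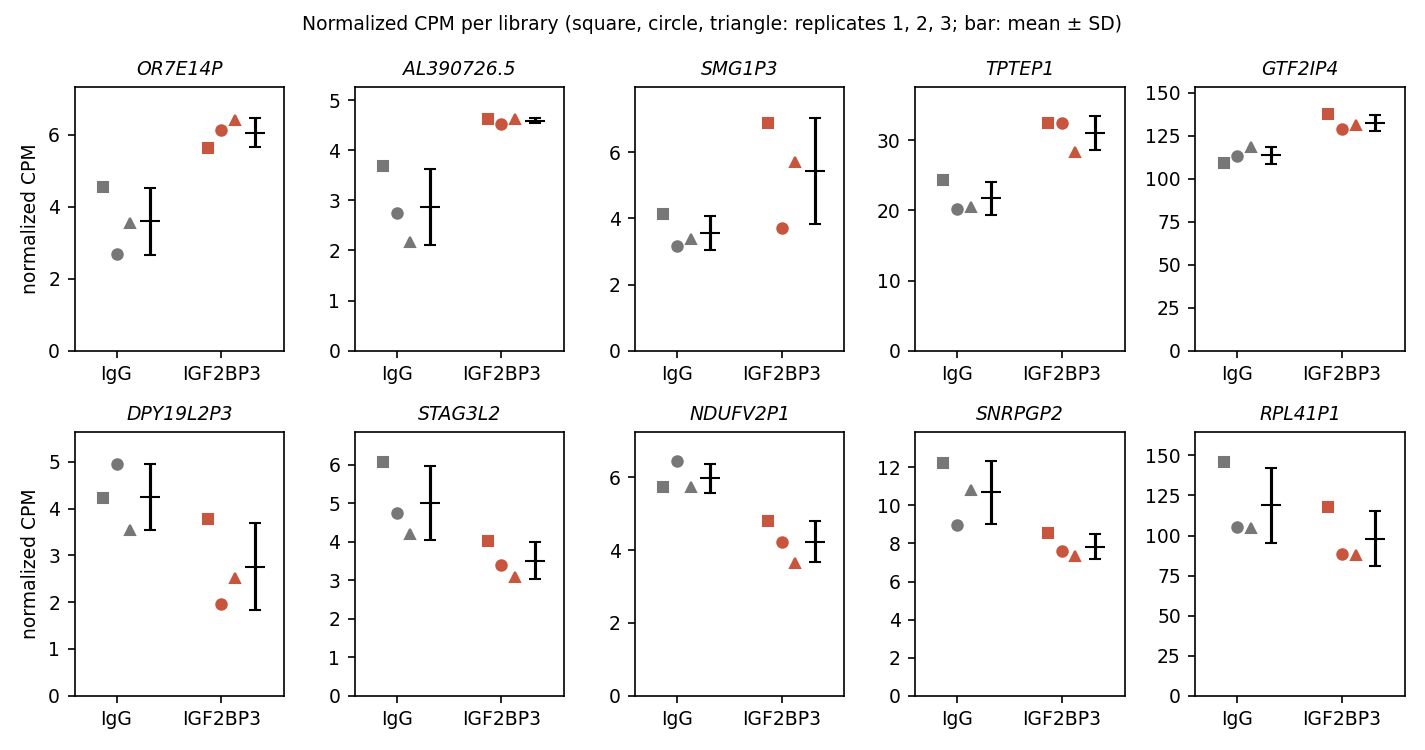
Normalized CPM in each library for 10 pseudogenes, with replicates 1, 2 and 3 as squares, circles and triangles and the mean ± SD beside them, on axes that start at 0. The upper row holds members with higher means in IGF2BP3 IP (in *SMG1P3* the groups overlap) and the lower row members with lower means (in *DPY19L2P3* and *RPL41P1* they overlap).

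Groups without overlap were counted next. In 13 members, or 4.53%, the lowest IGF2BP3 IP value exceeded the highest IgG IP value, against 12.0% of tested genes and 13.1% of those with the same count minimum. In 19 members, or 6.62%, the reverse held, against 8.69% and 9.83%. All 13 of the former were transcribed pseudogenes, and 4 of the latter were processed. No unprocessed member was separated in either direction. With the replicate block and no fold minimum, 6 members were higher and 6 lower at an adjusted p-value under 0.05, against 10.9% and 5.23% of tested genes and 12.8% and 6.33% of those with the same count minimum. The 6 lower ones were *RPL41P1*, *SNRPGP10*, *SNRPGP2*, *ZNF271P*, *AC092070.2* and *LRRC37BP1*, with log2 fold changes between −0.44 and −0.26 in the unblocked fit.

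Many processed pseudogenes were copies of housekeeping genes. Of the 84, 30 derived from ribosomal protein genes, 9 from translation factor genes, 9 from genes of chromatin and nuclear proteins, 4 from chaperone genes and 4 from genes of RNA-binding proteins. Over all classes 40 members were ribosomal protein copies, with a median log2 fold change of −0.08. Of these, 28, or 70%, lay below 0, against 52.1% of genes with 20 or more counts in each library. No ribosomal copy had groups that did not overlap, while 13.1% of those genes lay wholly above and 9.83% wholly below. The 11 copies of translation factors had a median of 0.02, and the 13 of chromatin and nuclear proteins had −0.11. The unadjusted p-value of edgeR was under 0.05 for 0 members of each of these 3 groups, against 10.9% higher and 3.39% lower among those genes. The median standard error was 0.26, 0.24 and 0.19 in the 3 groups, against 0.14 for those genes. These counts of 0 therefore do not show that differences are absent.

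*RPL41P1*, whose sequence is given above, had 146, 105 and 105 CPM in IgG IP and 118, 88.5 and 87.7 CPM in IGF2BP3 IP. Replicate 1 was highest in both groups, and the groups overlapped through it. The log2 fold change was −0.27 ± 0.16 (SE), with an edgeR adjusted p-value of 0.52 that became 0.0028 with the replicate block, still within the fold minimum. The parent *RPL41* had −0.15 ± 0.18 (SE). Other ribosomal copies ranged from −0.51 for *RPL21P75* to 0.31 for *RPSAP58*, whose parent *RPSA* had 0.47. *RPL21P75* had 4.77, 2.61 and 3.07 CPM in IgG IP and 2.85, 1.66 and 2.68 CPM in IGF2BP3 IP, which overlapped.

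Of the 3 copies of *SNRPG*, 2 had fold changes below 0, as had the parent, and none passed the test. *SNRPGP2* had 12.2, 8.98 and 10.8 CPM in IgG IP and 8.56, 7.63 and 7.32 CPM in IGF2BP3 IP. All 3 IGF2BP3 libraries were below the lowest IgG library, and the log2 fold change was −0.44 ± 0.17 (SE). The edgeR adjusted p-value was 0.30, and 0.039 with the block. *SNRPGP10* had −0.30 ± 0.16 (SE) and *SNRPG* −0.34 ± 0.15 (SE), but *SNRPGP15* had 0.11 ± 0.28 (SE). The log2 ratio of *SNRPGP2* to *SNRPG* counts differed between the groups by −0.11 (exact permutation test, two-sided p = 0.6, where 0.1 is the smallest that 3 libraries against 3 allow).

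*NDUFV2P1* and *UQCRFS1P1*, copies of genes for subunits of respiratory complexes I and III, had log2 fold changes of −0.50 ± 0.19 and −0.47 ± 0.33 (SE). *NDUFV2P1* had 5.75, 6.43 and 5.73 CPM in IgG IP and 4.79, 4.23 and 3.66 CPM in IGF2BP3 IP, without overlap, and an edgeR adjusted p-value of 0.29. Its parent *NDUFV2* had 0.05 ± 0.26 (SE), with 32 to 46 counts per library although its TPM averaged 489, so the counts of this parent do not follow its RSEM level. *UQCRFS1P1* had 8.67, 9.92 and 5.08 CPM against 8.40, 3.93 and 4.88 CPM, which overlapped.

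The highest processed fold changes were those of *AC138207.3*, *HMGB1P1*, *RPSAP58* and *POLRMTP1*, at 0.50, 0.31, 0.31 and 0.28. *AC138207.3* resembles *YWHAE*, a 14-3-3 protein gene, at 95.8% identity. It had 3.04, 1.74 and 2.10 CPM in IgG IP and 4.11, 2.49 and 2.93 CPM in IGF2BP3 IP, with overlapping groups. *HMGB1P1*, a copy of a chromatin protein gene, had a log2 ratio to *HMGB1* counts that was higher by 0.50 in IGF2BP3 IP, without overlap (exact p = 0.1). This copy was named for its fold change in these same libraries, so the p-value is a description only.

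The processed members with the highest CPM were *H3P6*, *PPIAP22* and *RPL41P1*. *H3P6* had 623, 589.9 and 568 CPM in IgG IP and 467, 532 and 585 CPM in IGF2BP3 IP. Replicate 1 was highest in IgG IP and lowest in IGF2BP3 IP, and the log2 fold change was −0.17 ± 0.10 (SE), close to −0.16 ± 0.09 (SE) for *H3-3A*. Without both replicate 1 libraries it was −0.05. *PPIAP22*, a copy of the cyclophilin A gene with 99.6% identity, had 132 ± 15.1 CPM in IgG IP and 127 ± 30.2 CPM in IGF2BP3 IP (SD, n = 3). Its log2 fold change was −0.05 ± 0.16 (SE), and *PPIA* had −0.12 ± 0.12 (SE).

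Unprocessed members were few. *AL512324.3*, on chromosome 10, had 10.1, 11.7 and 7.18 CPM in IgG IP and 11.5, 13.4 and 14.5 CPM in IGF2BP3 IP. Only replicate 1 of IGF2BP3 IP fell within the IgG range, and the log2 fold change was 0.44 ± 0.19 (SE), with an edgeR adjusted p-value of 0.39, or 0.037 with the block. *GUSBP8*, a copy of the beta-glucuronidase gene, *WASH8P*, of an actin nucleation complex gene, and *CDRT15P12* had 0.38, 0.32 and 0.23. At the lower end, *SHLD2P3*, *DPY19L1P2* and *AC022905.1* had −0.27, −0.22 and −0.22. *AC010615.1*, at 0.12, shares 1763 of its 1764 exonic bases on the same strand with *ZNF738*, at −0.08, and the counts of this pair cannot be told apart from sequence alone. *TCAF1P1* was at −0.03. Nuclear copies of mitochondrial genes, *MTCO1P12* and *MTATP6P1*, had 0.06 each at mean counts of 469.5 and 204, and *MTCO3P12* had 0.06. *TRBV26OR9-2* had 0.22 ± 0.22 (SE).

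Among parent genes, *PI4KA* and *CLUH* were enriched. A parent was the protein-coding gene left when the final P and its digits are removed from a symbol, which named a parent for 154 members, and 146 of these pairs had both genes tested, with 97 parents in all. Of the 97 parents, 2 passed the thresholds upward and 0 downward. Among all tested genes 1.16% passed upward and 0.0% downward, and 1.4% upward among those with 20 or more counts in each library. *PI4KA* rose from 19.2 ± 1.18 to 32.5 ± 2.94 CPM (SD, n = 3), a log2 fold change of 0.76 ± 0.12 (SE) with an edgeR adjusted p-value of 0.022. *CLUH*, which encodes a protein that binds mRNAs for mitochondrial proteins, rose from 8.25 ± 0.49 to 13.8 ± 0.78 CPM (SD, n = 3), a log2 fold change of 0.74 ± 0.13 (SE) with an edgeR adjusted p-value of 0.037. Both were named after their values were seen.

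The copies of these enriched parents did not pass the test. *PI4KAP1* had 4.66, 2.48 and 3.31 CPM in IgG IP and 4.28, 1.66 and 3.09 CPM in IGF2BP3 IP. *PI4KAP2* had 5.53, 3.08 and 3.39 CPM against 5.88, 3.55 and 2.68 CPM. In both the groups overlapped, and the log2 fold changes were −0.19 ± 0.37 and 0.04 ± 0.34 (SE), with 95% confidence intervals from −1.02 to 0.64 and from −0.73 to 0.80. The log2 ratio to *PI4KA* counts differed by −1.02 and −0.77 between the group means (exact unpaired permutation test, p = 0.2 and 0.3). Within same-numbered libraries the ratio was lower in IGF2BP3 IP in all 3 pairs for both copies, by −0.69, −1.50 and −0.87 for *PI4KAP1* and by −0.48, −0.73 and −1.10 for *PI4KAP2* on the log2 scale (exact sign-flip test, p = 0.25 each, the smallest that 3 pairs allow). Over all 146 pairs of genes the ratio was lower in all 3 library pairs for 20 members and higher in all 3 for 20. Random signs would give 3 pairs the same direction with a probability of 0.25, so these counts say little about the copies. *CLUHP3* had 5.85, 7.24 and 7.26 CPM in IgG IP and 7.56, 7.93 and 7.15 CPM in IGF2BP3 IP, with a log2 fold change of 0.15 ± 0.16 (SE). Its log2 ratio to *CLUH* counts was lower in all 3 IGF2BP3 libraries than in any IgG library, with a difference of −0.58 between the means (exact unpaired permutation test, p = 0.1). No aligned stretch to *CLUH* was found in its annotated transcript. Because *PI4KA* and *CLUH* were picked for their rise in these same libraries, lower ratios of their copies follow in part from that choice. The p-values of these ratios are given as a description only. *EP400P1*, *CROCCP2* and *POLRMTP1* had −0.01, −0.19 and 0.28, where *EP400*, *CROCC* and *POLRMT* had 0.57, 0.59 and 0.61. None of these 3 parents passed the thresholds in the main test. With the replicate block *POLRMT*, which encodes the mitochondrial RNA polymerase, passed both (edgeR adjusted p = 0.017), so that 3 of the 97 parents did. Without both replicate 1 libraries, 3 of the 97 parents passed upward as well, where 3.18% of tested genes were called higher. By the fit with the block, 3.56% of tested genes were called higher. *CROCC* had only 8 to 23 counts per library.

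**Figure D4:**
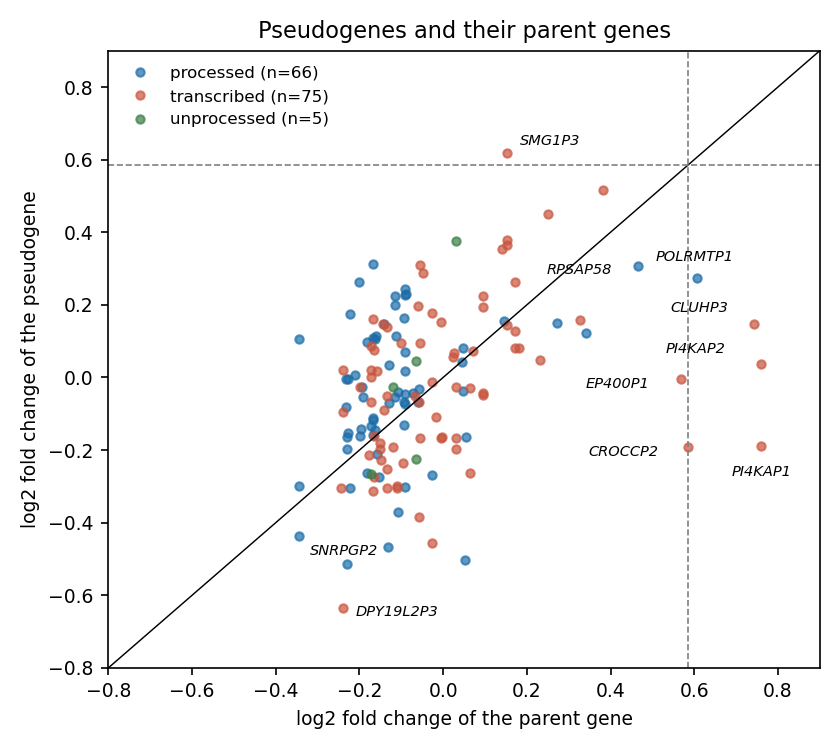
Log2 fold change of each pseudogene against that of its parent gene for 146 pairs, coloured by class, with a diagonal line of equal change and dashed lines at a 1.5-fold rise. Most points lie near the origin, and the copies of *PI4KA*, *CLUH*, *EP400*, *CROCC* and *POLRMT* lie well below the diagonal at the right.

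Over the 146 pairs the median log2 fold change was −0.03 for the pseudogenes and −0.09 for the parents. Besides *NDUFV2*, other parents had few counts for their TPM, and their pairs were kept. *RPL26* had 92 to 136 counts per library at 7124 TPM, while *RPL41* had a mean count of 11938 at 5419 TPM. In 113 pairs the values differed by less than 1 combined standard error, and in 140 by less than 2. Across pairs, which share parents and libraries, Pearson's r was 0.34 and Spearman's rho 0.36, given as a description. The ratio of member to parent counts separated the groups without overlap in 9 pairs, 5 of them upward and 4 downward. For libraries in random order the probability of such a separation is 0.1, both directions together, so 9 of 146 pairs is no excess. By TPM, which is per length, the parent was the more abundant in 136 pairs. Processed copies had a median of 0.37% of the TPM of their parent, and transcribed copies had 21.3%.

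Processed members were the closest to coding genes. Aligned over at least 90% of their length to the closest protein-coding transcript, 74 processed members had a median identity of 98.6%, and 50 of them had at least 98%. For 6 processed members no base differed. The 100 transcribed members so aligned had a median identity of 95.5%, and 25 of them reached 98%. GENCODE version 44 annotates a separate noncoding transcript beside 133 of the 189 transcribed members, so its sequence of these is not always the model that was counted.

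Counts and TPM did not describe the same levels for recent copies. TPM values are RSEM estimates, which divide reads that match several genes. Listed at TPM 0 in all libraries were 16 members, 14 of them processed. Among these, *RPL41P1* had a mean count of 1313, while *RPL41* had 5419 TPM. *SNRPGP2*, *SNRPGP15*, *HMGB1P1*, *RPL15P2* and *AC138207.3* were also listed at TPM 0, as were *EEF1A1P4*, *EEF1A1P9* and *EEF1A1P11*, copies of the elongation factor gene *EEF1A1*. *H3P6* had a mean count of 6900.0 against 13674 for *H3-3A*, but 33.6 TPM against 2374.5 TPM. The direction of change in log2(TPM + 1) was that of the counts in 181 of the 271 members with a TPM above 0 in some library. By class these were 36 of 70 processed, 135 of 188 transcribed and 9 of 12 unprocessed members. In TPM the median of all tested genes was itself shifted by 0.11, and that of the members by 0.06.

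Overlapping genes were common in the annotation. On the same strand, 40 members shared exonic bases with another gene of the table and 25 lay within an intron of one. On either strand, 155 members overlapped no other gene of the table. Genes of version 44 outside the table, such as those beside 133 transcribed members, were left out of these counts. Among the 13 members nested on the same strand in an intron of a tested gene, the median log2 fold change was −0.04, and that of their hosts was −0.08, with 0 hosts enriched. Whether the counting used strand is not stated, so opposite-strand overlaps are uncertain as well.

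As a whole, expressed pseudogenes took up a share of counts that did not differ beyond the spread between libraries. They held 0.474, 0.435 and 0.433% of counts in IgG IP and 0.467, 0.425 and 0.437% in IGF2BP3 IP, or 0.448 ± 0.023% and 0.443 ± 0.022% (SD, n = 3; exact permutation test, two-sided p = 0.7). The share was highest in replicate 1 of both groups. Processed members held 0.154 ± 0.011% and 0.145 ± 0.010% (exact p = 0.5), transcribed members 0.282 ± 0.011% and 0.285 ± 0.012% (exact p = 0.6), and unprocessed members 0.012 ± 0.001% and 0.013 ± 0.001% (exact p = 0.4). *H3P6* alone gave between 30.4 and 40.9% of the processed counts. Without it the processed share was 0.095% in IgG IP and 0.092% in IGF2BP3 IP.

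**Figure D5:**
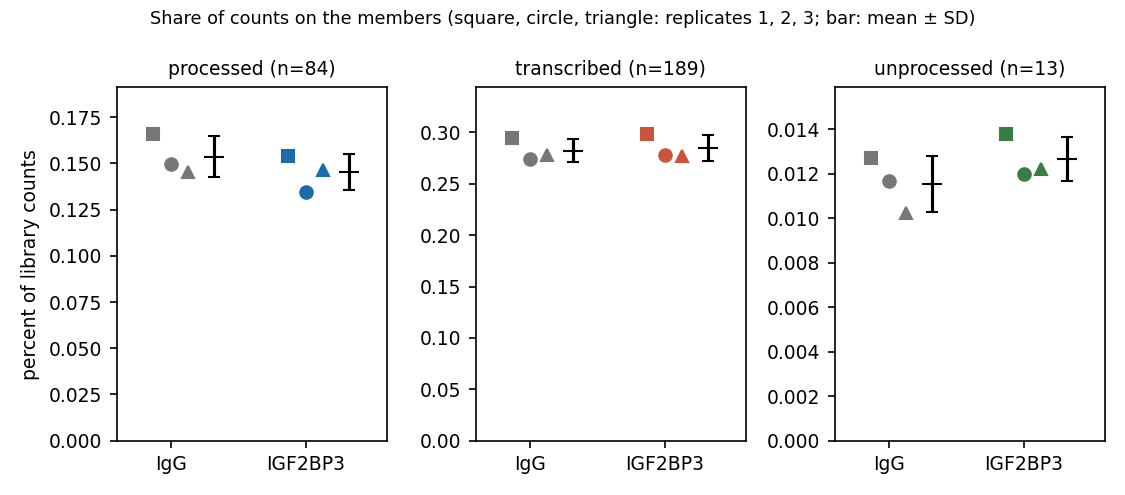
Percent of library counts on processed, transcribed and unprocessed members in each library, with replicates 1, 2 and 3 as squares, circles and triangles, the mean ± SD beside them and axes that start at 0. The groups overlap in all 3 classes, and replicate 1 is the highest library of its group in each.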

How the data were processed

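The authors aligned paired-end reads of 150 bp to GRCh38 with STAR 2.7.9a, used RSEM and GENCODE version 37, and deposited raw counts (whole reads for each gene, not scaled) as well as TPM values. Which counting program was used, and whether it read strand, is not given in the sources used here. FPKM values were not used. Groups and replicate numbers came from the sample labels.

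After filterByExpr and TMM scaling in edgeR 4.0.16 (R 4.3.3), quasi-likelihood tests with condition as the only term ran over all 14507 genes left. All 287 members passed the filter, as did 294 other pseudogenes. Thresholds were a fold change of 1.5 and an adjusted p-value under 0.05. Each standard error was derived from the F statistic. Alternatives were DESeq2 1.42.0, limma-trend (limma 3.58.1) on TPM, other scaling and filters, loess corrections for GC content and length (span 0.5), other member minimums and leaving out libraries. Deviations from the group means correlated across genes between same-numbered libraries, at 0.57, 0.28 and 0.23, so the replicate block is printed where it changed a call. Cross pairs of replicates 2 and 3 correlated at 0.28 and 0.27. Tested on simulated data, edgeR recovered 86% of 200 changed genes over 14482 genes with 8 false calls. DESeq2 recovered 78.5% over 27751 genes with 4 false calls. Recovery among the members alone, at their counts and standard errors, was not tested. These percentages therefore do not tell how many changed members would be called. The median count was 69.2 over the members and 228 over all tested genes.

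Members and lists were chosen with earlier results of these data known. Named were, per class, members past the thresholds, the 4 largest and 4 smallest fold changes and the 3 highest CPM, those nearest to the count minimum, those past the thresholds with the block or DESeq2, and their parents and overlapping genes. GENCODE version 44 gave coordinates and transcript sequences, and blastn 2.17.0 the closest protein-coding transcript.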

Additional observations from a re-analysis of the deposited data

How the results depend on the processing

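Counts of enriched and depleted members stayed at 0 with DESeq2, RLE factors, library totals only, both other filters, limma-trend, other member minimums, members without a same-strand exon overlap and every single library left out. Enriched members, all transcribed, numbered 2 with the replicate block, 3 with a term for replicate 1, 1 with the GC correction, 2 with the GC correction and the block, 1 with the length correction and 3 without both replicate 1 libraries, an alternative chosen after seeing the data. Of all tested genes, 3.56%, 3.7%, 0.553%, 1.84%, 0.981% and 3.18% were called higher in these fits. Depleted members numbered 1 with the replicate 1 term (*DPY19L2P3*), 1 with the GC correction and the block (*AC005332.4*) and 1 without both replicate 1 libraries (*DPY19L2P3*), where 0.159%, 0.249% and 0.0545% of tested genes were called lower. With the replicate 1 term *SMG1P3* also passed. The cause was not tested. The median log2 fold change over the members was 0.000149 with library totals only, 0.062 and 0.073 in log2(TPM + 1) and log2(TPM + 0.1), −0.082 and −0.086 with the GC correction without and with the block, and −0.0025 with the length correction. All tested genes then had medians of 0.034, 0.11, 0.13, −0.026, −0.027 and −0.055. In TPM, processed members had 0.034 and 0.025, transcribed members 0.068 and 0.083, and unprocessed members 0.23 at the smaller pseudocount. Leaving out single libraries gave ranges of −0.11 to 0.058 over all members, −0.18 to 0.050 for processed, −0.0028 to 0.20 for unprocessed and −0.079 to 0.039 for transcribed members. The log2 ratio of shares in counts was −0.015 over all, −0.081 over processed, 0.013 over transcribed and 0.13 over unprocessed members. In TPM it was 0.11, 0.11, 0.10 and 0.24 in the same order (exact permutation test, two-sided p = 0.3, 0.3, 0.4 and 0.1). The TPM shares of the unprocessed members did not overlap between the groups, and 0.1 is the smallest p possible. In counts, the log2 ratio of shares ran from −0.055 to 0.029 over all and from −0.023 to 0.047 over transcribed members when single libraries were left out. The median difference of the log2 ratio to the parent then ran from −0.036 to 0.060 over all pairs, −0.11 to 0.26 over unprocessed and −0.055 to 0.054 over transcribed pairs. It was 0.29 for unprocessed pairs in TPM and 0.012 for transcribed pairs without both replicate 1 libraries. Some members changed sign without passing a threshold. *RPL24P4* had −0.018 in DESeq2, −0.0054 with RLE factors, −0.0019 without the filter, −0.025 with the block and with the replicate 1 term, −0.031 and −0.063 with the GC correction without and with the block, and −0.025 without both replicate 1 libraries. Without these libraries, *MTATP6P1* had −0.070, *TCAF1P1* 0.048 and *AC022905.1* 0.15. In log2(TPM + 1) and log2(TPM + 0.1), *PPIAP22* had 0.023 in both, *H3P6* 0.034 and 0.035, *RPL21P75* 1.16 and 2.22, *TCAF1P1* 0.21 and 0.25, *AC022905.1* 0.17 and 0.36, and *SHLD2P3* 0.16 and 0.31. In log2(TPM + 0.1), *WASH8P* had −0.018 and *DPY19L1P2* 0.036. *PPIAP22* had 0.017 with the length correction and *TCAF1P1* 0.011 with library totals only. With single libraries left out, *RPSAP58* ran from −0.20 to 0.64, *RPL24P4* from −0.38 to 0.36, *PPIAP22* from −0.26 to 0.063, *MTATP6P1* from −0.32 to 0.32, *MTCO1P12* from −0.063 to 0.15, *TCAF1P1* from −0.35 to 0.15, *AC022905.1* from −0.45 to 0.058 and *DPY19L1P2* from −0.71 to 0.20. Among the named members, 615 of 671 alternative values kept direction and call. At 20 to 50 counts, the median standard error of 0.27 limits what can be told apart.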
